A study of Arabidopsis thaliana with 6 samples.

Results

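miR861, miR5026 and miR8183 are microRNA (miRNA) families of Arabidopsis thaliana with 1 annotated precursor each, and together they supply 4 of the 294 mature miRNA sequences in the deposited count table. Their rows were taken by family number from the locus names in that table, for both precursor arms. The 3 families were chosen by their counts with and without hormone in these same 6 libraries, so the differences given here describe them and are not tests. The study set seedlings given 1 µM epibrassinolide (epiBL, an active brassinosteroid) for 90 min against seedlings given only the solvent for 90 min (control). Each group had 3 replicates, which made 6 small RNA libraries in all. The study asks which miRNAs respond to the hormone. The plants of both groups were bri1-5 mutants, defective in the brassinosteroid receptor BRI1, that carried wild-type BRI1 with a Flag tag, driven by the promoter of BRI1 itself. They were grown as whole seedlings in shaken liquid medium, and no plant age is given. RNA came from whole seedlings, so fewer cells of a type and less RNA per cell cannot be told apart. Nothing in the labels says whether replicates were separate cultures, so any spread between them may be technical.

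MicroRNAs are cut by Dicer-like enzymes from a folded precursor, and 1 strand of the resulting duplex is loaded into an Argonaute protein, where it guides cleavage or repression of mRNAs with a matching site. Families shared by distant land plants usually target transcription factors or nutrient regulators, whereas young families are confined to a few related species, often have 1 locus and low counts, and often lack an established target. Many young precursors in Arabidopsis still resemble the gene or repeat from which an inverted duplication made them. Brassinosteroids bind BRI1 at the cell surface and, through a kinase relay, activate the transcription factors BZR1 and BES1. Young here means outside a list of family numbers known as widely conserved.

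The 4 mature sequences are shown as the table gives them, in DNA letters from 5′ to 3′, with the seed (bases 2 to 8) in capitals, because shared seeds mark related miRNAs and the first base is known to affect which Argonaute takes up a plant miRNA.
miR861-3p: gATGGATAtgtcttcaaggac
miR861-5p: cCTTGGAGaaatatgcgtcaa
miR5026-3p: aCTCATAAgatcgtgacacgt
miR8183-5p: tTTAGTTGacggaattgtggc
No seed is shared among the 4, and none of the other sequences in the table carries any of these seeds. The first bases are G, C, A and T, so each member begins with a different base. A first T, which AGO1 favours, is found in 56.1% of the 294 sequences, and a first A, favoured by AGO2 and AGO4, in 24.8%. All 4 are 21 nt long, as are 226 of the 294, and each has a GC content of 42.9%, which is also the median of the table. The nearest other sequence in the table is 7 to 9 edits away from each member, so a read with 1 sequencing error in another listed miRNA would not be counted for them.

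The precursors lie on chromosomes 3 and 4, and positions are those of an exact match to the TAIR10.1 assembly. miR861-3p matched chr3:17838154-17838174 and miR861-5p chr3:17838223-17838243, both on the minus strand and both in MIR861 (AT3G48201, chr3:17838135-17838266). MIR861 overlaps no other annotated gene, and the nearest coding gene, AT3G48200 on the same strand, lies 136 bases away. miR8183-5p matched chr3:11747799-11747819 on the minus strand, in MIR8183 (AT3G05985, chr3:11747715-11747831). MIR8183 lies wholly inside AT3G30110, a transcribed pseudogene on the same strand that the annotation derives from a storekeeper-related DNA-binding protein gene. miR5026-3p matched chr4:7844612-7844632 on the plus strand, in MIR5026 (AT4G06075, chr4:7844496-7844688), within an intron of the noncoding gene AT4G13495.

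The 3 precursors are printed on the RNA strand in DNA letters, with the mature miRNA in capitals, because their folds differ in size and in how the miRNA sits; they were read from RefSeq's TAIR10.1 assembly.
MIR861: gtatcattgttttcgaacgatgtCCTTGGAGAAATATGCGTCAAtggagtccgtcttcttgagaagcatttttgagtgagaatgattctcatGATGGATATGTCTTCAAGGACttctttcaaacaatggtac
MIR5026: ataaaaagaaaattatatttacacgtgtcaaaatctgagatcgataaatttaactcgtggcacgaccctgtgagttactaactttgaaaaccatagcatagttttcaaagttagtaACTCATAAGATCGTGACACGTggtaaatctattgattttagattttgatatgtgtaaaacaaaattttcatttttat
MIR8183: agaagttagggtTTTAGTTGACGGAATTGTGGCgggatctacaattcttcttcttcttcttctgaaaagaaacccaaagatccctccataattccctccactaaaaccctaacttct
The MIR861 precursor is 132 nt long and folded with 55 base pairs at a predicted free energy of -56.4 kcal/mol. Its 2 miRNAs faced each other over 17 base pairs with a 3′ overhang of 2 nt at each end of the duplex, the form that Dicer-like enzymes leave. MIR5026, at 193 nt, had 82 pairs and -91.3 kcal/mol, and its miRNA occupies bases 117 to 137, on the 3′ side. MIR8183, at 117 nt, had 45 pairs and -59.6 kcal/mol, with the miRNA at bases 13 to 33 on the 5′ side. Between 17 and 19 of the 21 bases of each miRNA were paired. The arm named in the table fits the position in the precursor for all 4.

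Copy number set MIR5026 apart from the other precursors. The mature miR861-3p, miR861-5p and miR8183-5p sequences each occurred once in the nuclear chromosomes, with no further place within 2 mismatches. miR5026-3p occurred in 36 places within 2 mismatches, of which 2 were exact. The second exact match is on the minus strand at chr5:14318730-14318750, outside any annotated gene. The MIR5026 precursor had 65 local alignments elsewhere, over all 5 chromosomes (blastn, E value at most 0.001), and 15 of them covered the whole miRNA. MIR861 and MIR8183 had 0. Reads counted as miR5026-3p therefore cannot be assigned to chromosome 4 alone.

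Library totals here are reads identical to a listed mature miRNA, not all reads sequenced. They ran from 2050074 to 4482479 reads. The lowest was that of epiBL replicate 3, where 3 reads were 1.46 CPM (reads per 1000000 miRNA reads). The 4 members together took 0.0454% to 0.0577% of these reads in epiBL libraries and 0.0466% to 0.0494% in control libraries. Normalised counts below are CPM scaled by TMM factors, which are set on all miRNAs passing a filter on low counts. Of the 4 members 3 passed that filter, and miR861-5p did not. Intervals and limits given for single libraries cover counting error only, since PCR copies of a read were not marked.

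Among all 294 sequences, miR8183-5p ranked 39 by mean normalised count, miR861-3p 59, miR5026-3p 80 and miR861-5p 218. Within the 199 sequences of young families, members included, these were ranks 10, 19, 28 and 125. The mean over 6 libraries was 324 CPM for miR8183-5p, 122 CPM for miR861-3p, 42.2 CPM for miR5026-3p and 0.186 CPM for miR861-5p. The order was the same in every library, and the ranges did not overlap: 298 to 374 CPM, 102 to 140 CPM, 29.4 to 50.9 CPM and 0 to 1.12 CPM. The other young families in the table had a median of 0.815 CPM and the conserved ones 61.9 CPM, so miR8183-5p and miR861-3p were counted above the middle of the conserved families. Cloning efficiency differs between small RNA sequences, so levels of different miRNAs compare reads, not molecules.

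**Figure D1:**
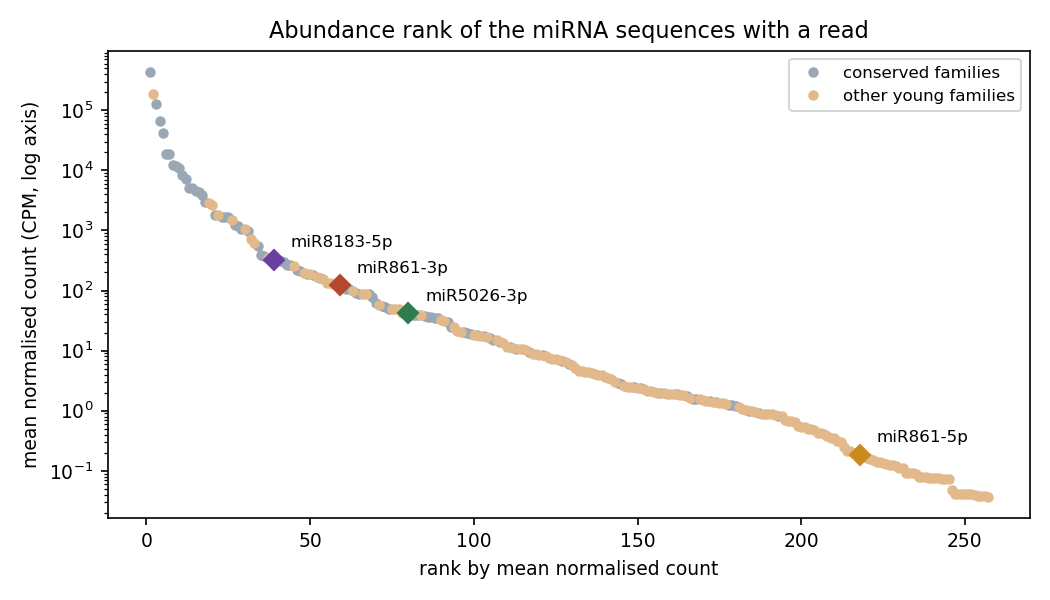
Mean normalised count (CPM, log axis) of each miRNA sequence with a read, against its rank; grey points are conserved families, tan points other young families and diamonds the 4 members. miR8183-5p, miR861-3p and miR5026-3p sit at ranks 39, 59 and 80, and miR861-5p at rank 218.

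Nearly all reads of MIR861 came from its 3′ arm. miR861-3p had 479, 580 and 250 reads in epiBL replicates 1, 2 and 3, and 522, 438 and 425 reads in control replicates 1, 2 and 3. miR861-5p had 2 reads, both in epiBL replicate 3, and 0 reads in the other libraries. The 5′ arm thus made up 0.153% of the 1311 reads of the precursor in epiBL libraries (95% exact Clopper-Pearson interval 0.0185 to 0.550%). It had 0 of 1385 reads in control libraries, where 3 divided by the reads gives an approximate 1-sided 95% limit of 0.217%. The 2 limits are of unlike kinds, and the control limit lies within the epiBL interval. Both pool the reads of a group's libraries, so they cover counting error only and not the spread between replicates. Whether arm use differs between the groups was not tested, since 2 reads in 1 library cannot decide it. With 0 reads of the 5′ arm in 5 of the 6 libraries, a log2 ratio of the arms depends on the pseudocount. It averaged 9.38 on counts plus 0.5 and 8.50 on counts plus 1, so no ratio is given as measured, and no test. The authors' deposited table lists a fold of 8.99 for miR861-5p with epiBL, which rests on those 2 reads.

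For miR861-3p, the normalised count was 136, 135 and 140 CPM in epiBL replicates 1, 2 and 3, and 117, 102 and 103 CPM in control replicates 1, 2 and 3. All epiBL libraries were above all control libraries, and the lowest of them exceeded the highest control, replicate 1, by 17.9 CPM. The means were 137 ± 2.74 CPM with epiBL and 107 ± 8.06 CPM in controls (SD, n = 3 each), and epiBL over control was 0.35 on the log2 scale (SE 0.11). On CPM of the plain library total the values were 128, 141 and 122 with epiBL and 116, 113 and 108 in controls, which also do not overlap.

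miR5026-3p went the other way. It had 104, 182 and 61 reads in epiBL replicates 1, 2 and 3, or 29.4, 42.2 and 34.1 CPM, against 222, 201 and 210 reads in control replicates 1, 2 and 3, or 49.6, 47.0 and 50.9 CPM. All epiBL libraries were below all control libraries, with epiBL replicate 2 within 4.75 CPM of the lowest control. The spread with epiBL, 35.3 ± 6.48 CPM, was wider than in controls, 49.2 ± 2.00 CPM (SD, n = 3 each). The log2 fold change was -0.47 (SE 0.16), and it was -0.64 without epiBL replicate 2 and -0.32 without epiBL replicate 1. On CPM of the library total, the 95% exact Clopper-Pearson intervals were 22.8 to 33.8, 38.1 to 51.2 and 22.8 to 38.2 CPM in epiBL replicates 1, 2 and 3, and the control values were 49.5, 51.8 and 53.4 CPM. The interval of epiBL replicate 2 covers the value of control replicate 1, so counting error alone does not separate every library of the groups.

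The highest member, miR8183-5p, was 327, 374 and 345 CPM in epiBL replicates 1, 2 and 3, and 300, 298 and 298 CPM in control replicates 1, 2 and 3. On this scale the groups do not overlap, and the means were 349 ± 23.6 CPM with epiBL and 299 ± 1.30 CPM in controls (SD, n = 3 each). The log2 fold change was 0.22 (SE 0.10). The closeness of the 3 controls is below counting error, since the 1275 reads of control replicate 2 alone give a 95% interval of 311 to 347 CPM of the library total. On that plain scale the values were 309, 392 and 301 CPM with epiBL and 300, 329 and 313 CPM in controls. There the groups overlap, and only epiBL replicate 2 is above all controls.

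**Figure D2:**
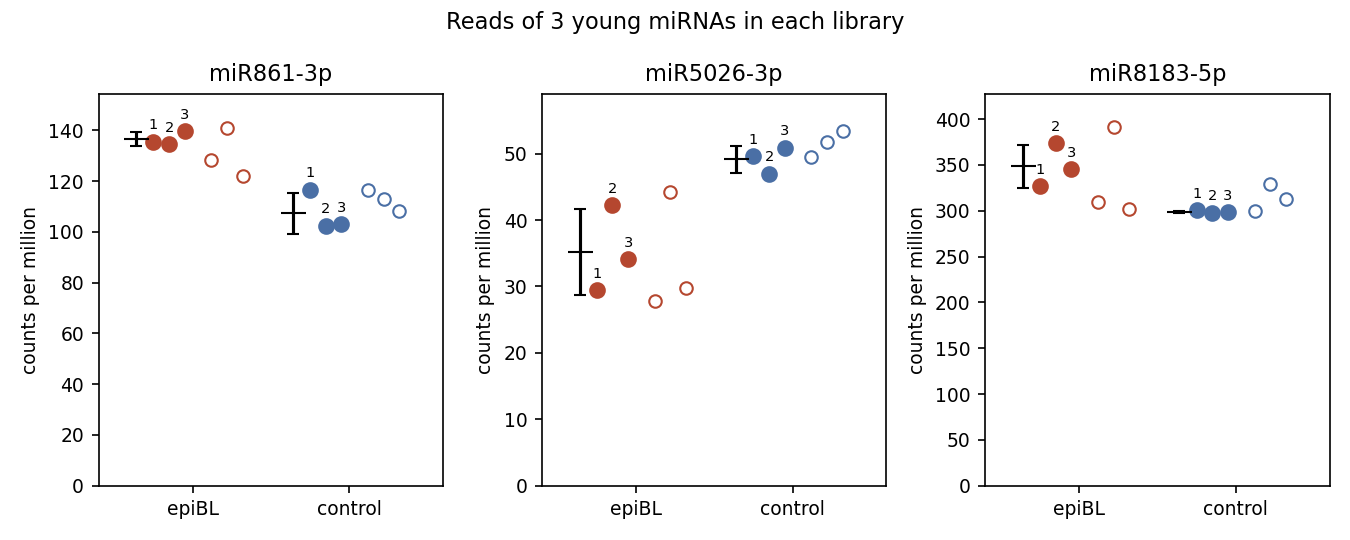
CPM of miR861-3p, miR5026-3p and miR8183-5p in each epiBL (red) and control (blue) library; filled points with replicate numbers are TMM-normalised, open points use the plain library total in the same order, and black bars are the mean and SD of the filled points. Open and filled points separate the groups for miR861-3p and miR5026-3p, whereas for miR8183-5p the open points overlap.

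When all 148 miRNAs were tested by the quasi-likelihood method of edgeR, with p-values adjusted after Benjamini and Hochberg, 0 of the 3 tested members passed the threshold of 0.05, where 8.11% of all miRNAs did. At an unadjusted p under 0.05 the numbers were 3 of 3 members and 23.6% of all miRNAs, and in DESeq2 1 member (miR861-3p) and 13.4% of those given an adjusted p. All 3 had groups that do not overlap, against 27.7% of all miRNAs. Of these, miR861-3p and miR8183-5p were above (10.1% of all miRNAs) and miR5026-3p below (17.6%). Since the members were chosen with this contrast known, these counts describe the choice. When reads were summed per family, which sets the scaling anew, miR861 (miR861-3p plus 2 reads) had a log2 fold change of 0.38 (SE 0.11), miR5026 of -0.44 (SE 0.15) and miR8183 of 0.25 (SE 0.10). On these sums edgeR called 8.24% of the 85 families, miR861 among them, and nothing is read from that call. The miR861 call was absent with RLE size factors and with total counts. It was also absent in 5 of the 6 fits without 1 library. The exception was the fit without control replicate 1, where 7 of 85 families were called. Family miR5026 was called with total counts, where 5 of 85 families were, and without epiBL replicate 2, where 11 of 89 were.

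Scaling moved all 3 in the same direction. With plain library totals the median log2 fold change of all miRNAs was -0.13, against 0.0046 with TMM. The log2 fold changes then became 0.22 for miR861-3p, -0.58 for miR5026-3p and 0.093 for miR8183-5p. Relative to the median of all miRNAs they were 0.34, -0.46 and 0.22, against 0.34, -0.47 and 0.22 with TMM. Ratios between members within a library need no scaling. miR861-3p had 4.61, 3.19 and 4.10 reads for each read of miR5026-3p in epiBL replicates 1, 2 and 3, and 2.35, 2.18 and 2.02 in control replicates 1, 2 and 3. miR8183-5p had 11.1, 8.85 and 10.1 reads for each read of miR5026-3p with epiBL, and 6.05, 6.34 and 5.86 in controls. Both ratios were higher in every epiBL library than in every control library. Each sets a member chosen with higher counts under epiBL over one with lower counts, so this separation describes the choice and is no separate support. The ratio of miR8183-5p to miR861-3p was 2.41, 2.78 and 2.47 with epiBL and 2.58, 2.91 and 2.89 in controls, and these ranges overlap.

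**Figure D3:**
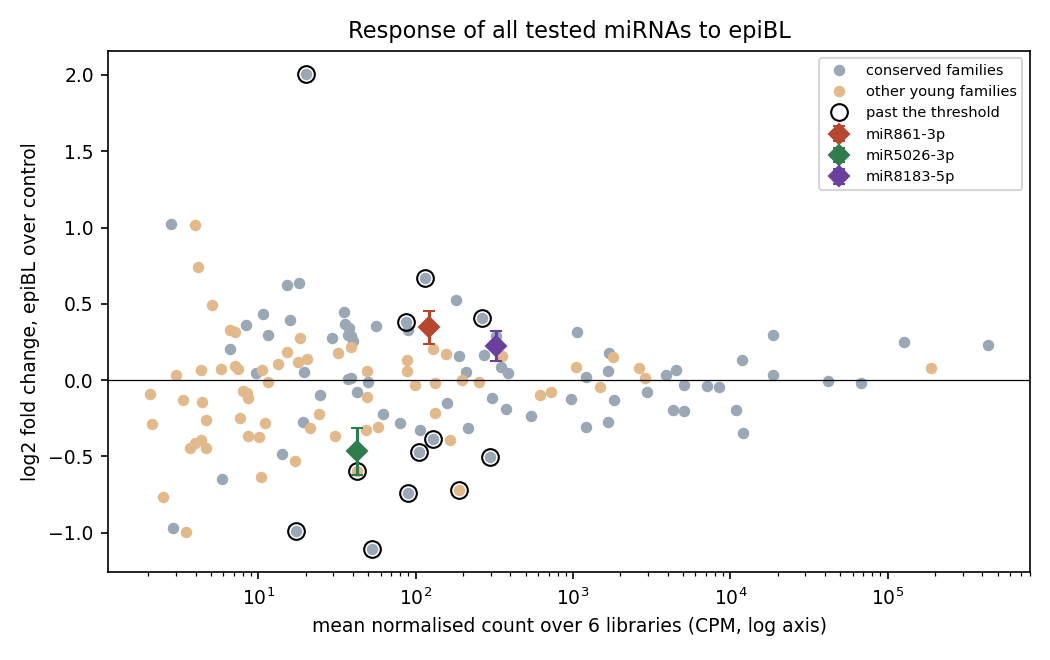
Log2 fold change of epiBL over control against mean normalised count (CPM, log axis) for the 148 tested miRNAs; diamonds with SE bars are miR861-3p, miR5026-3p and miR8183-5p, and open circles mark the 12 miRNAs past the threshold. The members lie at 0.35, -0.47 and 0.22, inside the cloud of miRNAs of like abundance, and carry no open circle.

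MIR5026 shares its noncoding gene with other young precursors. AT4G13495 (chr4:7842967-7846774, plus strand) also holds MIR850 (chr4:7845707-7845927) and the start of MIR863 (chr4:7846597-7846899), all on the same strand. MIR5026 and MIR850 are intronic in both annotated transcripts and 1018 bases apart. MIR863 begins 669 bases after MIR850, in the last exon, and runs past the end of the gene. miR863-3p had 38.5, 36.2 and 25.7 CPM with epiBL and 48.5, 55.2 and 51.9 CPM in controls, and all epiBL libraries were lower. Its log2 fold change of -0.60 (SE 0.16) passed the test (edgeR, adjusted p = 0.0275), but did not without epiBL replicate 3 (edgeR, adjusted p = 0.123), control replicate 2 (0.0723) or control replicate 3 (0.0743), where it was -0.46, -0.55 and -0.59. miR850-5p had 26.3, 20.2 and 20.7 CPM with epiBL and 27.0, 26.6 and 25.0 CPM in controls. Here epiBL replicate 1 lies among the controls, and the log2 fold change of -0.22 (SE 0.18) did not pass (edgeR, adjusted p = 0.469). miR863-5p had 16 reads in epiBL libraries and 20 in controls and was too rare to test. MIR850 and MIR863 were looked up after the values of miR5026-3p were seen.

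**Figure D4:**
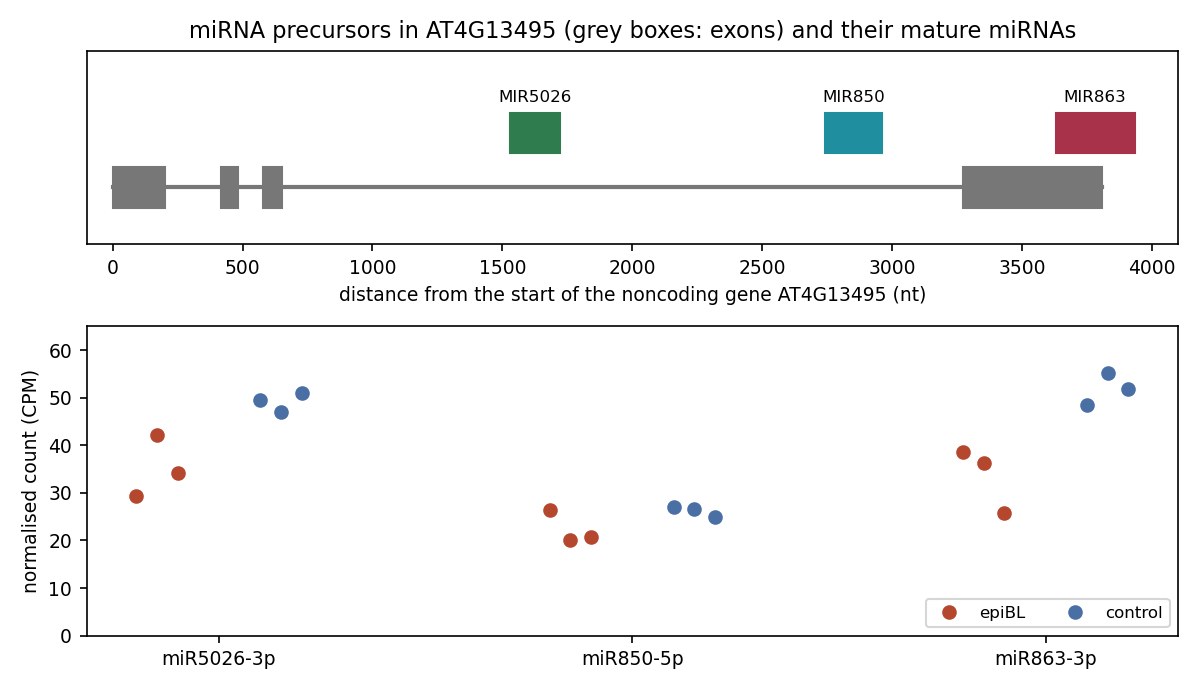
Top, the noncoding gene AT4G13495 with its exons (grey boxes) and the precursors MIR5026, MIR850 and MIR863, by distance in nt from the start of the gene. Bottom, normalised counts (CPM) of their miRNAs in epiBL (red) and control (blue) libraries; epiBL points of miR5026-3p and miR863-3p lie below all control points, and those of miR850-5p overlap with them.

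Over the 6 libraries, miR863-3p had a Pearson r of 0.71 with miR5026-3p (rank 22 of 145 other miRNAs) and miR850-5p one of 0.25 (rank 54). The profiles most like that of miR5026-3p were miR859-5p (r = 0.99), the miR169h-n-5p sequence (r = 0.98) and miR169a-5p (r = 0.96). miR859-5p had means of only 1.79 CPM with epiBL and 3.19 CPM in controls, so its r rests on few reads. Those most like miR861-3p were the sequence shared by miR170-5p and miR171a-5p (r = 0.94), miR395a/d/e-3p (r = 0.93) and miR2111b-3p (r = 0.93). For miR8183-5p they were miR156g-5p (r = 0.90), miR5650-5p (r = 0.89) and miR395b/c/f-3p (r = 0.89). Of these, miR5650-5p had low means of 5.97 CPM with epiBL and 4.18 CPM in controls. miR861-3p and miR8183-5p had an r of 0.84 with each other and of -0.80 and -0.52 with miR5026-3p. All these are log2 normalised counts in the same 6 libraries, which share depth, scaling and the 2 groups, so an r is a description and 2 miRNAs that differ between the groups in 1 direction will have a high one.

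BZR1 and BES1 bind the brassinosteroid response element (CGTGCG or CGTGTG) and the G-box (CACGTG), which basic helix-loop-helix factors bind as well. These letters were searched on both strands in the 1000 bases before the annotated start of MIR861, AT4G13495 and MIR8183. The annotated start of a precursor is not a mapped transcription start. For MIR5026 the window was placed before AT4G13495, the gene that holds it, and the bases before MIR5026 itself were not searched. For MIR8183 it was placed before the precursor, so part of it lies inside AT3G30110, the pseudogene that holds MIR8183. Neither form of the response element was in any of the 3 windows. CGTGCG occurs in 4.87% and CGTGTG in 16.6% of the 37897 windows of that length before annotated nuclear genes. MIR861 had 3 copies of CACGTG, whose first bases lie 270, 226 and 215 bases before the precursor, and AT4G13495 and MIR8183 had 0. At least 1 copy was found in 13.4% of all windows and at least 3 copies in 0.427%. All 3 copies also lie in the 1000 bases before AT3G48200, the coding gene next to MIR861 on the same strand. They therefore cannot be assigned to MIR861 alone. The stretch that holds the 3 copies, in capitals, is chr3:17838466-17838541 on the minus strand.
MIR861 upstream: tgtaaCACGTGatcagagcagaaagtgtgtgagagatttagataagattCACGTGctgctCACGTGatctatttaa
A match of 6 letters is not a binding site, and these data hold no measure of binding.

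Complementary sites were sought in 1 annotated transcript for each of 31346 loci, with a mismatch scored 1, a G:U pair 0.5 and both doubled at miRNA bases 2 to 13. At a score up to 3, a strict limit for plant miRNAs, miR8183-5p had 1 locus, and miR861-3p, miR861-5p and miR5026-3p had 0. Among all 294 sequences, 52.0% had 0, and among those of conserved families 47.4%. The search allowed no gaps, and a count of 0 does not mean that a miRNA lacks targets. At a score up to 4, miR8183-5p had 3 loci, miR861-3p 2, miR861-5p 1 and miR5026-3p 0, where the median of the table was 2. The sites of miR8183-5p and miR861-3p in protein-coding genes follow, on the mRNA strand, with capitals for bases that pair with the miRNA.
AT2G29370 for miR8183-5p: aTTACAAcTCCGTCAACTAAA
AT4G00238 for miR8183-5p: GTCACtGTTCCGTCAACaAAA
AT1G71990 for miR861-3p: GgCCgTGAAGATATATTCATC
AT2G46060 for miR861-3p: GTTCTgGtGGACATATCCATT
All 4 lie in coding sequence. AT2G29370 (chr2:12607067-12607087, score 3) encodes a Rossmann-fold NAD(P)-binding protein, and AT1G71990 (chr1:27101334-27101354, score 4) the fucosyltransferase FUT13. AT2G46060 (chr2:18943117-18943137, score 4) encodes a transmembrane protein. AT4G00238 (chr4:105007-105027, score 4) is annotated as a storekeeper-related DNA-binding protein, the description also given for the pseudogene that holds MIR8183. The annotation uses it for 31 loci, 25 of them coding. The remaining 2 sites were in loci with no coding sequence annotated. No mRNA was measured here, so none of these sites was tested as a target.

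The other young families gave few calls. Of their 195 sequences 67 were tested, and 0 rose and 2 fell in edgeR's test, where 2.7% of all miRNAs rose and 5.41% fell. At an unadjusted p under 0.05 these were 1 higher and 6 lower, where 15 of all 148 miRNAs were higher and 20 lower. DESeq2 gave 43 of the 67 an adjusted p and called 2, both lower, where it called 16 of 119 over all miRNAs. The list's median log2 fold change was -0.03, against 0.0046 for all miRNAs tested. The pair that fell were miR863-3p, of the gene that holds MIR5026, and miR841b-5p, which had 143 ± 27.8 CPM with epiBL and 234 ± 31.3 CPM in controls (SD, n = 3 each), or -0.72 as a log2 fold change (SE 0.14, edgeR adjusted p = 0.00572). The riser with the smallest p, miR8166-5p, had 5.31 ± 0.804 CPM with epiBL and 2.58 ± 0.570 CPM in controls (SD, n = 3 each) and did not pass (edgeR adjusted p = 0.0833), although it did with a filter of 10 counts in every library of a group (edgeR adjusted p = 0.0365). The most abundant, miR158a-3p, had a log2 fold change of 0.078 (SE 0.12), which was -0.059 with plain library totals. Among families with numbers near that of miR861, 32 of 60 sequences were tested and both fallers are among them. Among those numbered 5000 and above, like miR5026 and miR8183, 13 of 79 were tested, with a median log2 fold change of 0.064. In edgeR 0 of the 13 passed and 1 had an unadjusted p under 0.05, and DESeq2 called 0 of the 2 it gave an adjusted p.

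**Figure D5:**
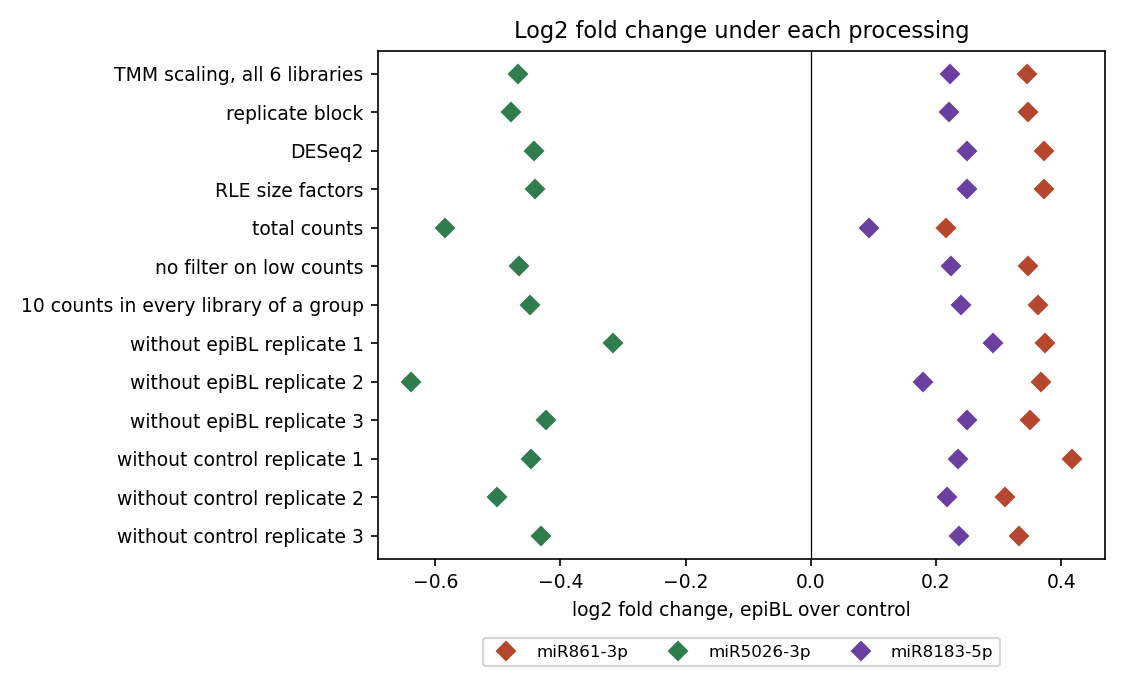
Log2 fold change of epiBL over control for miR861-3p (red), miR5026-3p (green) and miR8183-5p (purple) under each processing or with 1 library left out. miR861-3p stays between 0.22 and 0.42, miR5026-3p between -0.64 and -0.32 and miR8183-5p between 0.093 and 0.29.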

How the data were processed

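The authors deposited raw counts of reads identical to an annotated mature miRNA, per the file headers, so reads with trimmed, extended or edited ends are not in them. Small RNA was isolated with the mirVana kit and sequenced as TruSeq libraries on an Illumina Genome Analyzer, per the labels' protocols. Per the submitters' processing notes the genome build was TAIR10; no aligner or miRNA database is stated in the labels or headers used. The authors' deposited table also holds an unadjusted p-value, its −log10, a signed fold change (a score, negative where lower) and its log2; only 1 fold of it is printed. Its header names times of 0 and 90 min; per the labels both groups had 90 min, and the labels were followed.

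Counts were tested with edgeR 4.0.16 in R 4.3.3 (filterByExpr with a minimum count of 10 and total of 15, TMM, robust quasi-likelihood F test, Benjamini-Hochberg), without a replicate block. Standard errors were derived from F, and the biological coefficient of variation was 10.9%. Alternatives were a replicate block, DESeq2 1.42.0, other scalings, filters and family sums, and leaving out each library. No pair of replicates agreed within sampling noise.

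Folds are from RNAfold 2.7.2, alignments from blastn 2.17.0, and positions, motifs and annotation from RefSeq's TAIR10.1. Conserved families were 29 listed family numbers; all others are called young. The members and lists were chosen with earlier results of these data known. Named miRNAs are all member rows, the 3 most similar profiles of each tested member, and, of the other young families, those past the threshold, those with the smallest p in each direction and the most abundant. miR850, miR863-5p and the motifs were chosen after values were seen.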

Additional observations from a re-analysis of the deposited data

How the results depend on the processing

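Of 66 alternative values for the 3 tested member sequences and their family sums, 0 changed sign and 60 moved by less than 1 SD between replicates. The sums hold nearly the same reads as the sequences, so they add little to this tally. With total counts, miR861 and miR8183 moved further, both as sequences and as sums. Without epiBL replicate 2, the sums of miR5026 and miR8183 did. The 12 calls over all miRNAs became 22 with the replicate block, which held all 12, and 7 of 85 when summed per family, which changes what is counted. With 1 library left out they ranged from 5 (without control replicate 2 or epiBL replicate 3) to 25 (without epiBL replicate 2), and were 7 without control replicate 3; the cause was not tested. Calls in the other young families, 2 above, ranged from 1 to 3, and miR158a-3p turned to -0.059 with total counts. The single call was miR841b-5p without epiBL replicate 3, control replicate 2 or control replicate 3. The number of member sequences called, 0 above, was 2 with the replicate block (miR861-3p and miR5026-3p), 1 in DESeq2, with RLE size factors and with 10 counts in every library of a group (miR861-3p), 1 with total counts (miR5026-3p), and 0 to 2 with 1 library left out, 2 without epiBL replicate 2. The members were chosen on this contrast, and with the block 14.9% of all miRNAs were called. DESeq2 called 13.4% of those given an adjusted p. Calls over all miRNAs were 14 of 148 with RLE size factors and 17 of 148 with total counts. They were 15 of 142 with 10 counts in every library of a group, and 25 of 153 without epiBL replicate 2. Replicate numbers did not show a pairing of libraries: same-numbered libraries had correlations of -0.094, 0.14 and -0.11, and 2 of 6 correlated best with their own number. Without 1 library the log2 arm ratio at MIR861, on counts plus 0.5, ranged from 9.22 to 9.93; an exact sign-flip test was planned but says nothing here, since the zero counts fix every sign and 5 libraries cannot reach the threshold. Depth limits miR861-5p, since 3 reads are 1.46 CPM in epiBL replicate 3.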
